A study of Mus musculus with 2 samples.

Results

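Drosha-independent miRNAs are made without the nuclear cleavage that releases most miRNA hairpins. miR-320, miR-484 and the mirtrons miR-877 and miR-1224 were described in retina taken on postnatal day 0 from wild-type mice of the outbred strain CD-1. Every listed arm of these 4 hairpins was taken by name, which gave 7 of the 1358 mature miRNAs in the tables. The series held 1 group of 2 libraries, replicate 1 and replicate 2, both of the same strain, age and tissue, with no treatment named in the labels. Small RNA was cut from a gel at a size below that of the hairpins, so precursors were not measured.

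Most miRNA hairpins are cut from a long transcript in the nucleus by Drosha with its partner DGCR8, and Dicer then cuts off the loop in the cytoplasm. A capped hairpin such as miR-320 has its 5′ end at the start of transcription and carries the cap there. Of miR-320, Argonaute takes up mainly the 3p arm, whereas the only listed arm of miR-484 lies on the 5′ side. A mirtron is a short intron that the spliceosome cuts out and that folds into a hairpin once its lariat is opened, so that splicing sets both of its outer ends. Both kinds still need Dicer. miR-320 and miR-484 are expressed in many tissues, miR-877 lies in Abcf1, a gene for a protein of translation initiation, and miR-1224 is known from brain.

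The mature sequences set the targets through their seed, bases 2 to 8, shown in capitals. miR-320-3p is the most frequent read of the deposited table, in DNA letters, and the others are RefSeq entries (GRCm38.p6) in RNA letters.
miR-320-3p: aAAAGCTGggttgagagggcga
miR-484: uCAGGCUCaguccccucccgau
miR-1224-5p: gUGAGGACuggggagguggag
miR-1224-3p: cCCCACCUcuucucuccucag
miR-877-5p: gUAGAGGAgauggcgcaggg
miR-877-3p: uGUCCUCUucucccuccuccca
The 6 seeds differed from each other. None of the 1679 mature names in the RefSeq table other than the member itself shared any of them, so each stood alone by this measure. miR-320-5p is named only.

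The RefSeq hairpins show how the arms lie against the annotated hairpin ends, with the mature arms in capitals. The first is Mir484 (chr16:14159626-14159692, plus strand), the second Mir1224 (chr16:20604452-20604536, plus strand) and the third Mir877 (chr17:35960730-35960814, minus strand), all on GRCm38.
Mir484: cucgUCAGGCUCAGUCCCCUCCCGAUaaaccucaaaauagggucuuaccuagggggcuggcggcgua
Mir1224: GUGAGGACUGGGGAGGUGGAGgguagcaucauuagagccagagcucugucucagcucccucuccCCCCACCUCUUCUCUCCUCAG
Mir877: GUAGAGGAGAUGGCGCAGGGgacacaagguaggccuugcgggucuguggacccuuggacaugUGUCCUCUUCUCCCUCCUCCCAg
Both mirtron hairpins begin with GU and end with AG, the letters at the ends of most introns. In the GENCODE M21 annotation of GRCm38, the 85 bases of Mir1224 were exactly an intron of Vwa5b2, number 22 of 22 in the transcript with the most introns. The 85 bases of Mir877 were exactly intron 12 of 22 of Abcf1. Neither capped hairpin lay in a transcript of its own strand. Mir320 (chromosome 14, 70443510 to 70443591, plus strand) lay outside genes, with 62 bases between it and the start of Polr3d, a subunit gene of RNA polymerase III on the opposite strand. Mir484 lay 3582 bases upstream of Nde1 on its own strand and overlapped an exon of Marf1 on the opposite strand.

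The capped hairpins held nearly all counts of these miRNAs in the newborn retina, and the mirtrons were low. The 7 arms together held 0.401% of the counts in replicate 1 and 0.357% in replicate 2. The summed counts of miR-320 and miR-484 were 32774 in replicate 1 and 28274 in replicate 2, against 650 and 682 for miR-877 and miR-1224. On the log2 scale the ratio was 5.66 and 5.37 in replicates 1 and 2, with a mean of 5.51 ± 0.20 (SD, n = 2), or 45.7-fold. Without miR-320-3p the mean log2 ratio was 3.01, so miR-484 alone also stood above both mirtrons together. Ratios between different miRNAs or arms are ratios of counts, and how evenly their sequences were captured was not tested. In whole tissue, fewer cells that hold a miRNA and less of it per cell cannot be told apart.

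miR-320-3p, the mature strand of the miR-320 hairpin, had 26749 counts in replicate 1 and 23515 in replicate 2. These were 3208 CPM (counts scaled to a table total of 1000000, exact 95% interval 3170 to 3247) and 2897 CPM (2860 to 2934). The mean level of 3052 ± 220.3 CPM (SD, n = 2) put it at rank 36 of 1358, above 97.4% of the miRNAs. The miRNAs next to it in mean level were miR-191-5p above (3328 CPM) and miR-340-5p below (2985 CPM).

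miR-484, a single listed arm on the 5′ side of its hairpin, had 6025 counts in replicate 1 and 4759 in replicate 2. Its level was 722.6 CPM (exact 95% interval 704.5 to 741.1) and 586.2 CPM (569.7 to 603.1), a mean of 654 ± 96.4 CPM (SD, n = 2) at rank 89. It stood between miR-134-5p (685.2 CPM) and miR-186-5p (653.9 CPM). miR-124-3p, a miRNA of neurons, was at 649 ± 73.9 CPM, at rank 91.

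miR-1224-5p, the strand at the start of its intron, was the higher mirtron arm, with 474 counts in replicate 1 and 544 in replicate 2. Its level was 56.9 CPM (exact 95% interval 51.9 to 62.2) and 67.0 CPM (61.5 to 72.9), a mean of 61.9 ± 7.19 CPM (SD, n = 2) at rank 206. It stood between miR-486b-5p (62.3 CPM) and miR-143-3p (61.7 CPM). miR-877-5p had 169 and 131 counts, which were 20.3 CPM (17.3 to 23.6) in replicate 1 and 16.1 CPM (13.5 to 19.2) in replicate 2. Its mean of 18.2 ± 2.92 CPM gave rank 322, between miR-1a-3p (18.3 CPM) and miR-152-5p (18.0 CPM).

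The remaining arms were at or near the limit of detection. miR-877-3p had 6 counts in each library, or 0.72 CPM (exact 95% interval 0.264 to 1.57) in replicate 1 and 0.739 CPM (0.271 to 1.61) in replicate 2. It was among 4 miRNAs at that mean level, and miR-3085-5p (0.729 CPM) and miR-3084-5p (0.728 CPM) stood beside it in the order. miR-1224-3p had 1 count in each library, or 0.12 CPM (0.00304 to 0.668) in replicate 1 and 0.123 CPM (0.00312 to 0.686) in replicate 2. With miR-153-5p it was among 37 miRNAs at that mean level, and miR-466p-5p (0.122 CPM) was the next one above. miR-320-5p had 0 counts in both libraries, so that 3 counts per library set its upper limit, 0.36 CPM for replicate 1 and 0.37 CPM for replicate 2. Of the 7 arms 4 reached a mean of 10 CPM (57.1%), against 365 of all 1358 miRNAs (26.9%), and the median arm was at 18.2 CPM, against 0.730 CPM over all miRNAs.

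The order of the levels was the same in both libraries down to miR-877-5p. The log2 ratio of miR-320-3p over miR-484 was 2.23 ± 0.11 (SD, n = 2), or 4.68-fold. That of miR-484 over miR-1224-5p was 3.40 ± 0.38, or 10.5-fold, and that of miR-1224-5p over miR-877-5p was 1.77 ± 0.40, or 3.40-fold. Each of these steps had the same sign in both libraries and exceeded 2 SD. The log2 ratio of miR-877-3p over miR-1224-3p was 2.12 in both libraries, also beyond the spread, but it rests on 6 against 1 counts in each, and the counting intervals of their levels overlapped in both.

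**Figure D1:**
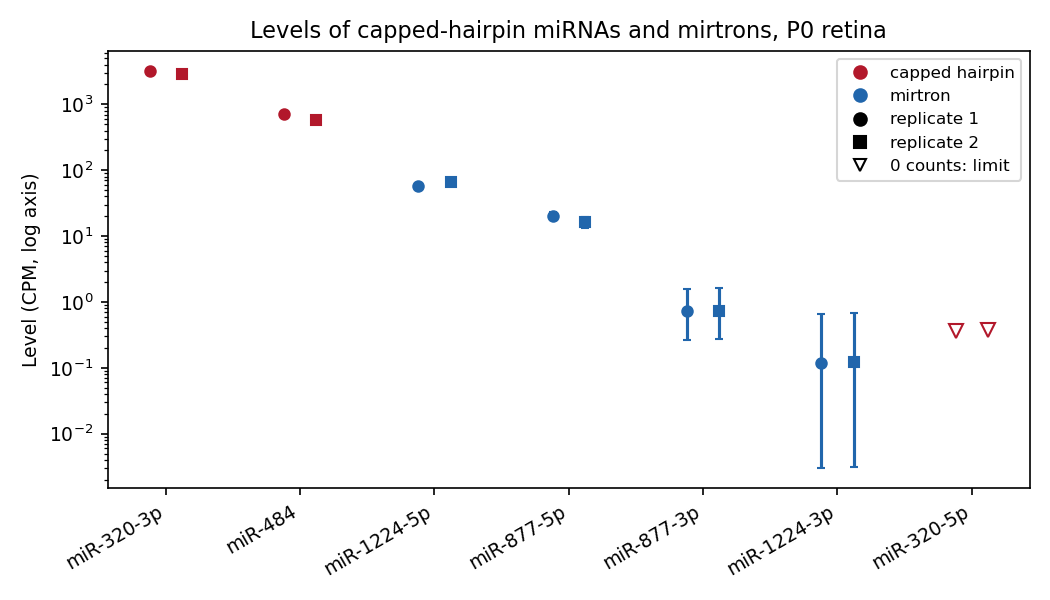
Level of each arm in CPM on a log axis, with circles for replicate 1, squares for replicate 2 and exact 95% binomial intervals as bars. miR-320-3p (3208 and 2897 CPM) stands highest, the mirtron 5p arms lie between 16.1 and 67.0 CPM, and open triangles for miR-320-5p mark the limit that 0 counts allow.

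Each hairpin with both arms listed used nearly a single arm, the 3p arm in the capped hairpin miR-320 and the 5p arm in both mirtrons. A 4-fold or larger excess of the 5p arm in both libraries was found in 40.4% of the 312 hairpins compared, and of the 3p arm in 36.9%. A difference between the arms was called in 89.4%, so a called difference by itself was the usual case. The 26749 counts of miR-320-3p in replicate 1 and the 23515 in replicate 2 stood against 0 counts of miR-320-5p. With the limit of 3 counts per library for the 5p arm, miR-320-3p was at least 8916-fold higher in replicate 1 and at least 7838-fold higher in replicate 2.

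miR-1224-5p made up 99.8% of the counts of its hairpin in each library. The ratio of 5p over 3p counts was 474 in replicate 1 (exact 95% interval 84.7 to 18761) and 544 in replicate 2 (97.2 to 21526), wide because the 3p arm had 1 count. In the exact binomial test of equal arms, adjusted over the 312 hairpins, p was 2.42e-140 and 2.49e-161. miR-877 was less one-sided, and the intervals of its ratio did not overlap those of miR-1224. Its 5p arm made up 96.6% and 95.6% of the counts, a ratio of 28.2 (12.7 to 77.8) in replicate 1 and 21.8 (9.77 to 60.6) in replicate 2, with adjusted p = 3.07e-42 and 1.83e-31 in the same exact test. The mean log2 ratio was 8.40 ± 0.14 for miR-1224 (SD, n = 2), with 90.7% of the hairpins at a lower one, and 4.52 ± 0.26 for miR-877, with 72.8% at a lower one. miR-484 has no second arm in the tables, so its arms could not be compared.

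**Figure D2:**
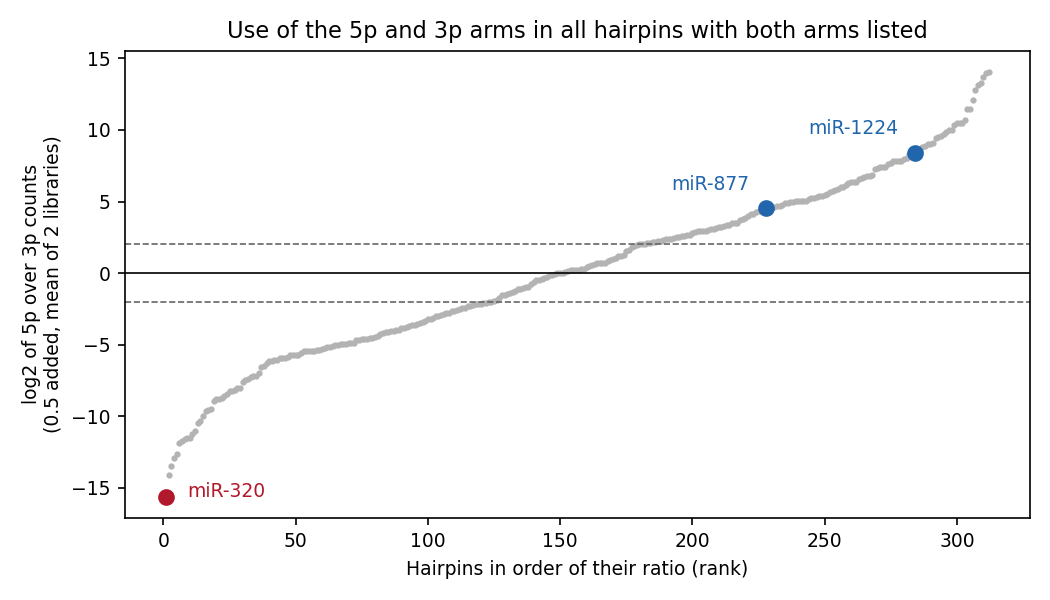
Mean log2 ratio of 5p over 3p counts over the 2 libraries (0.5 added to each count) for the 312 hairpins compared (10 counts or more over both arms in each library), in order of the ratio, with dashed lines at 4-fold. miR-320 lies at the 3p end, where its place depends on the value added to 0 counts, and miR-877 and miR-1224 lie on the 5p side.

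The most frequent read of each detected arm showed where its ends fell. miR-320-3p and miR-484 had the same 22-base read in both libraries, equal to the miRBase 21 entry. The same read in both libraries was common at their level, in 73 of 74 miRNAs at 1000 CPM or more and 102 of 106 at 100 to 1000 CPM. The read began at the miRBase start in both libraries in 70 of the 74 and 98 of the 106. Bases added at the 3′ end in both libraries were found in 14 of the 74 and 17 of the 106. How many reads equalled the whole miRBase entry was not counted. The miR-484 read began at base 5 of the annotated hairpin of 67 bases, so its start did not coincide with the annotated hairpin end.

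The mirtron 5p reads began exactly at the first base of the intron and varied at the 3′ end. They are shown with the seed in capitals.
miR-1224-5p, replicate 1: gTGAGGACtggggaggtggagg
miR-1224-5p, replicate 2: gTGAGGACtggggaggtggag
miR-877-5p, replicate 1: gTAGAGGAgatggcgcaggggaca
miR-877-5p, replicate 2: gTAGAGGAgatggcgcaggggac
The miR-1224-5p read was 22 bases long in replicate 1 and 21 in replicate 2. The miR-877-5p read was 24 and 23 bases long and ran 4 and 3 bases past the miRBase end of 20 bases. All of these reads matched the RefSeq hairpin along their length. At 10 to 100 CPM, 164 of 185 miRNAs (88.6%) kept the same read in both libraries, and both mirtron 5p arms were among the remaining ones. Bases added at the 3′ end in both libraries, as in miR-877-5p, were found in 44 of the 185 (23.8%). The seeds were those of miRBase in every 5p read.

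The reads of the 4 arms above 10 CPM held more G and C than the median miRNA of their level. The share was 54.5% in miR-320-3p, 63.6% in miR-484, 68.2% and 66.7% in miR-1224-5p and 62.5% and 65.2% in miR-877-5p, the values of replicates 1 and 2 where the reads differed. The median read of all miRNAs in replicate 1 held 47.6% at 1000 CPM or more, 47.8% at 100 to 1000 CPM and 50% at 10 to 100 CPM.

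The mirtron 3p reads ended at most 2 bases from the last base of the intron, and 3 of 4 ran past it. Capitals mark bases past the intron.
miR-877-3p, replicate 1: tcctcttctccctcctcccagT
miR-877-3p, replicate 2: tcctcttctccctcctcccagA
miR-1224-3p, replicate 1: ccccacctcttctctcctcagT
Both miR-877-3p reads began 2 bases after the miRBase start, so that bases 2 to 8 are CCUCUUC in the read, against GUCCUCU in the entry. They went 1 base past the AG of the intron, with T in replicate 1 and A in replicate 2. The exon after this intron starts with G, so neither added base was the next base of the annotated gene. The miR-1224-3p read of replicate 1 also ended in a T where the exon starts with G, and that of replicate 2 ended 2 bases before the intron end. The whole arm had 6 counts per library for miR-877-3p and 1 for miR-1224-3p. How many of the 6 had the shown ends is not given.

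The same 3′ end was seen in the most frequent reads of other short introns, in arms with more counts. Across the annotation, 23 hairpins had ends within 5 bases of an intron of at most 200 bases on the same strand, miR-877 and miR-1224 among them. Of the 14 3p arms of these hairpins with counts in at least 1 library, 12 were placed on their intron, and miR-3102-3p.2-3p (an inner arm) and miR-6970-3p were not. In 8 of the 12 placed arms the most frequent read ended 1 base past the intron with a T in at least 1 library. Some of these arms had 1 count. By library these were 6 of 11 placed arms (54.5%; 13 had counts) in replicate 1 and 6 of 10 (60%; 12 had counts) in replicate 2. Of the 3p arms of other hairpins whose read had no mismatch and stayed within the RefSeq hairpin, 27 of 287 in each library (9.41%) ended in a T that the hairpin does not have. Other reads were left out, among them those of 45 arms in replicate 1 and 42 in replicate 2 that ran past the hairpin end. The counted reads of the short-intron hairpins ran past their intron end, and their placed arms also kept reads with a mismatch. The shares are therefore not of like reads. The comparison was not tested.

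The arms with the most counts were miR-1981-3p from an intron of Marc2 and miR-6944-3p from an intron of Dbn1, a gene for an actin-binding protein of neurons. Their reads, and that of miR-702-3p from a short intron of Plod3, were the same in both libraries. The annotated miR-702 hairpin is not among the 23, since its start lies more than 5 bases from that of the intron. They are shown as the clearest cases of the added base, in capitals.
miR-1981-3p: catctaaccctggcctttgacagT
miR-6944-3p: taactcttcccttgtgccctcagT
miR-702-3p: tgcccaccctttaccccgctccagT
Whole-arm counts, with any 3′ end, were 277 and 307 for miR-1981-3p, 163 and 144 for miR-6944-3p, and 16 and 10 for miR-702-3p. In these and in the other arms with the added T, 9 with miR-702-3p, the exon after the intron did not start with T. By contrast, the most frequent reads of miR-6958-3p (21 and 13 counts in the arm) ended at the last base of the intron in both libraries.

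**Figure D3:**
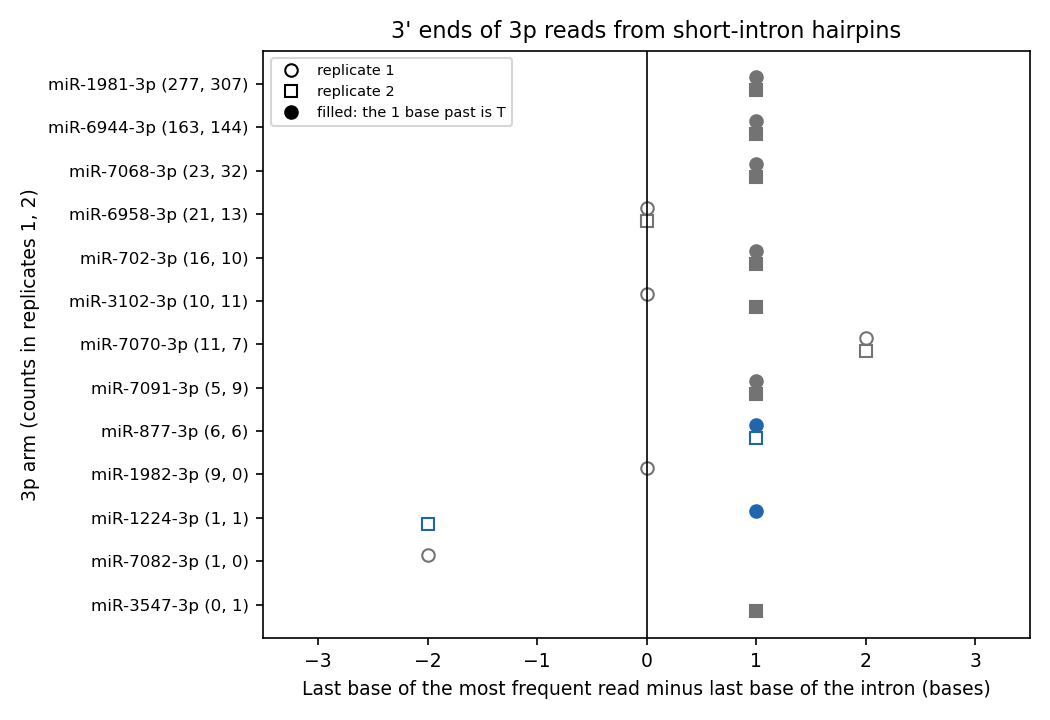
Distance in bases between the last base of the most frequent 3p read and the last base of its intron, for each 3p arm of a short-intron hairpin with at least 1 count that was placed on its intron, with counts of replicates 1 and 2 beside the name. Circles are replicate 1, squares replicate 2, blue the arms of miR-877 and miR-1224, and filled symbols mark reads that end 1 base past the intron in T, as in miR-1981-3p and miR-6944-3p in both libraries.

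Hairpins that coincide with a short intron were mostly low, and miR-1224-5p and miR-877-5p were among their higher arms. Of 31 listed arms from 18 of the 23 hairpins, 18 (58.1%) were detected in both libraries, against 68.0% of all miRNAs. The median arm was at 0.426 CPM, against 0.730 CPM over all miRNAs. A mean of 10 CPM was reached by 5 of the 31 arms (16.1%), against 26.9% of all miRNAs. The 5 were miR-1981-5p (275 ± 8.99 CPM, SD, n = 2), miR-1224-5p, miR-1981-3p (35.5 ± 3.25 CPM), miR-6944-3p (18.6 ± 1.28 CPM) and miR-877-5p. miR-6944 has only its 3p arm listed, so its arms were not compared. Of the hairpins with both arms listed, 8 had 10 counts or more over both arms together in each library. Of these, 3 were dominated by the 5p arm, namely miR-877, miR-1224 and miR-1981, 3 by the 3p arm and 2 by neither. Those dominated by the 3p arm include miR-3102, with 0 counts of 5p against 10 and 11 of 3p. Its separately listed arm miR-3102-5p.2-5p, with 16 and 19 counts, was not part of that ratio.

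Other miRNAs reported elsewhere as made without Drosha or DGCR8 were detected as well. The list held short introns (miR-702, miR-1981, miR-3102), hairpins from small nucleolar RNA (miR-664, miR-1839) and a hairpin from tRNA (miR-1983). Both libraries held 12 of its 13 arms (92.3%), against 68.0% of all miRNAs. A mean of 10 CPM was reached by 5 of the 13 (38.5%), against 26.9% of all miRNAs. The median arm was at 1.57 CPM, against 0.730 CPM over all miRNAs. miR-1981-5p led with 2345 and 2180 counts, followed by miR-1839-5p (248 ± 21.6 CPM), miR-1983 (148 ± 3.74 CPM), miR-1981-3p and miR-664-5p (11.98 ± 0.484 CPM). miR-3102-5p was at 0 counts in both libraries, and its other arms, with miR-702-5p and miR-702-3p (1.57 ± 0.486 CPM), were at or below 2.13 CPM. miR-1839-3p and miR-664-3p were at 1.40 and 1.39 CPM. The sum of the list was 718.5 and 735.6 CPM in replicates 1 and 2, above the mirtrons miR-877 and miR-1224 together (78.0 and 84.0 CPM) and below the capped hairpins (3931 and 3483 CPM).

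Between the libraries, the members did not all move the same way. Of the 5 members with at least 10 counts over both libraries, 3 differed in the exact binomial test, in which 27.9% of all 710 miRNAs tested were called. The log2 ratio of replicate 1 over replicate 2 was 0.15 for miR-320-3p (adjusted p = 4.29e-29, exact test) and 0.30 for miR-484 (adjusted p = 4.15e-26, exact test), both higher in replicate 1, as were 19.6% of all tested. It was -0.24 for miR-1224-5p (adjusted p = 0.0355, exact test), lower in replicate 1, as were 8.31%. miR-877-5p was at 0.33 (adjusted p = 0.162, exact test) and miR-877-3p at -0.039 (adjusted p = 1, exact test).

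The median log2 ratio over the 710 was 0.12 with table totals and 0.0037 with TMM scaling. Scaled by TMM, miR-320-3p was at 0.029 and was not called (adjusted p = 0.0837, exact test), while miR-484 (0.18) and miR-1224-5p (-0.36) kept their direction and call. With DESeq2 size factors miR-320-3p was at 0.045 and was called (adjusted p = 0.00232, exact test), with 26.6% of all tested called and 12.4% higher in replicate 1. TMM scaling called 26.3% of all tested, 11.3% higher in replicate 1 and 15.1% lower. These tests compare libraries and cover counting error only. With the edgeR coefficient of variation of 0.104 beyond counting error added, none of the 710 miRNAs differed at an adjusted p of 0.05. At an unadjusted p of 0.05, 40 did. This coefficient was estimated from the differences between the same 2 libraries. The lack of calls was therefore close to fixed in advance and cannot decide whether the libraries differ.

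**Figure D4:**
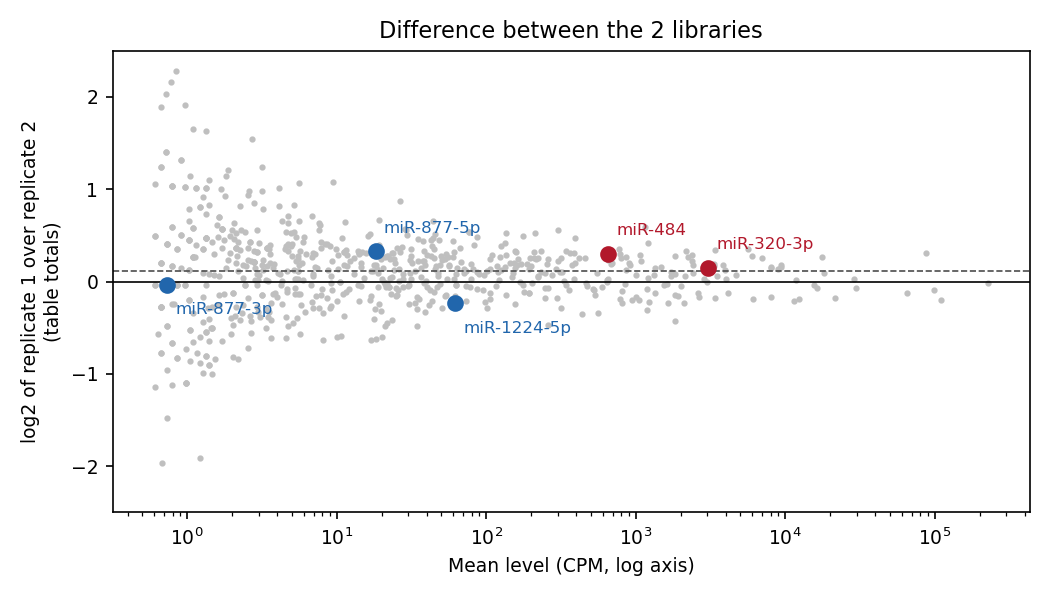
Log2 ratio of replicate 1 over replicate 2 against the mean level in CPM (log axis) for the 710 miRNAs tested, with a dashed line at their median of 0.12. miR-320-3p, miR-484 and miR-877-5p lie above 0, and miR-1224-5p at -0.24 lies below it.

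The libraries held 8337902 counts in replicate 1 and 8118208 in replicate 2, and 924 of the 1358 miRNAs were detected in both. Of the neural retina markers, miR-9-5p, miR-182-5p and miR-183-5p were at ranks 1, 2 and 5, miR-96-5p at rank 24 and miR-124-3p at rank 91. Of the 12 miRNAs chosen as markers of tissues and cells outside neural retina, miR-205-5p of lens and surface epithelium and miR-223-3p of blood were at 0 in both libraries. The highest was miR-204-5p, chosen for pigment epithelium, at 3389 ± 558 CPM (SD, n = 2). Whether it came from those cells was not tested. miR-126a-3p of endothelium (905 CPM) and miR-184-3p of lens and surface epithelium (804 CPM) were above miR-484, and miR-206-3p of muscle (70.7 CPM) was above miR-1224-5p. The other 6 lay between 0.18 and 20.9 CPM. Among them, miR-211-5p of pigment epithelium was at 5.62 CPM, and miR-1a-3p and miR-133a-3p of muscle were at 18.28 and 1.37 CPM. In blood markers, miR-451a was at 0.36 CPM and miR-144-3p at 0.18 CPM. Liver miR-122-5p was at 20.9 CPM, above miR-877-5p (18.2 CPM), and miR-1a-3p was about level with miR-877-5p. The part of other cells in the levels of the capped hairpins and mirtrons was not tested.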

How the data were processed

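Small RNA from newborn mouse retina was sequenced in 2 libraries. The labels do not say whether these came from separate animals, and their spread may be only technical. The members and lists were chosen with earlier results of these data known. The submitters' processing notes name bcl2fastq 2.17.1.14. Which aligner, counting program and build were used is not given in the sources used here. The deposited count table held estimated counts per mature miRNA, of which 6.77% and 5.96% were not whole; all member counts were whole, and counts were rounded for tests. The CPM deposited by the authors summed to 88.5% of 1000000 in each library, and CPM computed here from the table total was 1.13 times as high. The third deposited table gave the most frequent read, marked against miRBase 21 per the file headers, but not its share of the counts.

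Intervals are exact binomial (95%) and, like the limit for 0 counts (3 counts), cover counting error only, since PCR copies were counted without identifiers for single molecules. The 2 arms of a hairpin were tested for equal counts with a two-sided exact binomial test and Benjamini-Hochberg adjustment at 0.05, called where both libraries passed with the same sign and the mean log2 ratio (0.5 added) exceeded 2 SD. Libraries were compared by the same kind of test on miRNAs with at least 10 counts. Both tests were checked on data simulated with counting error only, so the check does not cover spread between libraries beyond it. Spread and TMM scaling came from edgeR 4.0.16 and size factors from DESeq2 1.42.0. Introns and hairpin positions were taken from GENCODE M21, and sequences from RefSeq (GRCm38.p6), in which every member except the arms of miR-320 was matched. Besides the members, the text names the nearest miRNA above and below each in level, arms sharing a seed, a list of other miRNAs made without Drosha or DGCR8, and the 5 highest arms of hairpins that coincide with a short intron. miR-9-5p, miR-124-3p, miR-182-5p, miR-183-5p, miR-96-5p and 12 others were markers. miR-6958-3p and miR-6970-3p were named after their values were seen.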

Additional observations from a re-analysis of the deposited data

How the results depend on the processing

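The summed level of the 7 arms was 3788 CPM by table totals and 3353 CPM by the authors' deposited CPM, a change of scale that cancels in ratios within a library. The log2 ratio of capped hairpins over mirtrons fell to 3.01 without miR-320-3p. With dispersion added to counting error, the count of miRNAs called between the libraries was 0, against 198 with counting error alone, 187 under TMM, 189 with DESeq2 size factors and 183 without a minimum of 10 counts. Without that minimum miR-1224-5p missed the threshold (adjusted p = 0.0569, exact binomial test). The dispersion was estimated from the same 2 libraries, so the count of 0 with it was close to fixed in advance. With added dispersion, the adjusted p was 0.855 or more for all 5 members tested. Apart from these and miR-320-3p under TMM, no direction or call of a member changed between the libraries. The authors' deposited CPM also lowered the mean levels of the members, as for miR-320-3p at 2702 CPM. The arm ratios, the order of the levels and the number of hairpins that coincide with a short intron (22 within 2 bases, 29 within 10 bases) kept their direction, or stayed within 1.5 times the count, in every alternative run, including each library alone. No paired analysis was possible because the series has a single group. Depth limits the 3p arms of the mirtrons, which rest on 1 to 6 counts per library.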
